A study of Mus musculus with 4 samples.

Results

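Cytosolic ribosomal protein genes were read in ureter tumors and normal ureter of mice as the probe sets that the platform annotation assigns to 1 gene named Rpl, Rps or Rplp with a number, or Rpsa, without the S6 kinases. That gave 105 probe sets for 49 genes, out of 18193 genes with a probe set of their own. The 49 genes are 24 of the large subunit, 23 of the small subunit and the stalk genes Rplp0 and Rplp2. Of these, 46 passed the filter on low signal and were tested, and Rpl39l, Rpl3l and Rps16 did not. Another 110 probe sets name a ribosomal protein gene together with other genes and were not members; 28 ribosomal protein genes are named only there, so that Rpl5, Rps27a, Rplp1 and Rpl3 are not analysed here.

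The study set ureter tumors (2 arrays) beside normal ureter (2 arrays), both from C57Bl/6 mice aged 6 to 8 weeks. The labels state that ureter epithelium was isolated, and total RNA was hybridised to Affymetrix Mouse Genome 430 2.0 arrays. The labels of all 4 arrays carry the same treatment text, doxycycline for 1 week from an age of 3 weeks to recombine the floxed Ncstn allele (Ncstnf/f) in mice carrying R26rtTA and teto-Cre. No label says which alleles an individual sample carried, or whether the normal ureters came from mice with these alleles. R26rtTA places the doxycycline-dependent activator at the broadly active Rosa26 locus, so that the transgenes by themselves do not limit Cre to the urothelium. The labels call the 2 samples of a group biological replicates without naming animals, so a p-value here reflects the spread of these samples, which may be technical.

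The targeted gene Ncstn, which encodes the nicastrin subunit of gamma-secretase, had signals of 81.6 and 131 in the tumors, against 99.0 and 66.2 in normal ureter (log2 difference 0.30, SE 0.42, limma adjusted p = 0.725). The urothelial markers (Upk1a, Upk1b, Upk2, Upk3a, Krt5, Krt20 and Trp63) summed to 26796 and 1557 in the tumors, against 27665 and 48699 in normal ureter, with 5 of 7 genes lower in both tumors and none at 0. Krt5 had 15780 and 628 in tumors, against 3415 and 5518 in normal ureter, and Trp63 had 10167 and 440, against 2446 and 3847. Both genes lay above both normal arrays in tumor 1, where they made up most of the sum, and below both in tumor 2. The 4 kidney tubule markers summed to 1369 and 89470 in the tumors, against 9267 and 15977 in normal ureter, so tumor 2 stood apart. The 4 mast cell markers summed to 102879 and 115 in the tumors, against 318 and 224 in normal ureter, and the 4 T and NK cell markers to 16137 and 337, against 412 and 409, so tumor 1 stood apart in these sums. Gzma (15262) made up most of the T and NK cell sum in tumor 1. Cd3e (145 and 65.1 in tumors, against 56.2 and 56.6 in normal ureter) and Cd3g (429 and 128, against 108 and 81.5) were higher in both tumors. Gzma and Nkg7 were higher in tumor 1 and lower in tumor 2 than in both normals. Plasma and B cell markers (119027 and 109109, against 1715 and 1597) and macrophage markers (38041 and 30546, against 8832 and 7446) were higher in both tumors. Markers of fat (35308 and 6083, against 240332 and 257296), smooth muscle (15800 and 26161, against 53938 and 42751) and skeletal muscle (228 and 178, against 631 and 438) were lower in both tumors. The fat and smooth muscle sums on the normal arrays show that these samples were not epithelium alone. Proliferation markers summed to 5301 and 1860 in the tumors and 479 and 600 in normal ureter. The part of cell composition in the results that follow was not tested.

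Ribosomal proteins assemble with ribosomal RNA into the small subunit, which decodes the message, and the large subunit, which joins the amino acids. The acidic P proteins form the stalk of the large subunit that recruits the translation factors. Their genes are among the most highly transcribed in most cells, and their messages share a terminal oligopyrimidine tract, a run of C and T that begins at the first base and lets signalling through mTOR and Larp1 change their translation together. Growth control by Myc and surveillance of the supply of free ribosomal proteins through Mdm2 and Trp53 act on the same set.

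The sequences below show the stretch that carries this tract at the annotated start of members described later. RefSeq promoter windows on build GRCm38.p6, from 250 bases before to 50 bases after each annotated start, matched 51 starts of 43 members. Rpl14, the member with the highest difference between the groups, lies at chr9:120571477-120571536 on the plus strand, Rplp2, a stalk gene among the lowest, at chr7:141447611-141447670 on the plus strand, and Rps6, the S6 kinase substrate, at chr4:86857348-86857407 on the minus strand. Rpl38 lies at chr11:114668540-114668599 on the plus strand, Rps10 at chr17:27635225-27635284 on the minus strand, and Rpl37, with the highest difference after Rpl14, at chr15:5116573-5116632 on the plus strand. Each window holds 40 bases before and 20 bases from the start on, 5′ to 3′ on the gene's strand. Capitals mark the run of pyrimidines that begins with C at the start, and any CCGGAAG, the core bound by ETS factors.
Rpl14: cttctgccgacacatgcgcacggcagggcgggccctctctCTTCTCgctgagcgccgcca
Rplp2: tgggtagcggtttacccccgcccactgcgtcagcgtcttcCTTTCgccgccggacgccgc
Rps6: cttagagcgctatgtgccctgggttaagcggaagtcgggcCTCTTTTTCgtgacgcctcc
Rpl38: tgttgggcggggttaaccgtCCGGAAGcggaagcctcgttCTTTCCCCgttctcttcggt
Rps10: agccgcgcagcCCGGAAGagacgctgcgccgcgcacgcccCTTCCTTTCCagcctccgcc
Rpl37: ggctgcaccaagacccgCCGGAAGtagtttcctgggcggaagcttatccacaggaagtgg

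The run was 6 bases long in Rpl14, 5 in Rplp2, 9 in Rps6, 8 in Rpl38 and 10 in Rps10, and Rpl37 had none at its annotated start. A C at the start followed by at least 4 pyrimidines, searched on the gene's strand, stood at 8 of 51 member starts (15.7%), against 2.51% of 32851 starts in the table. The 8 genes with it were Rpl14, Rpl35, Rpl38, Rplp2, Rps10, Rps18, Rps27 and Rps6. Over the whole window and on both strands, CCGGAAG stood in 21 of 51 member windows (41.2%, against 8.86% of all windows) and ATGGCG, part of the site of YY1, in 16 (31.4%, against 8.93%). The E-box CACGTG, a site of Myc, stood in 5 member windows (9.80%, against 7.15%) and TATAAA, the promoter box of that name, in 6 (11.8%, against 13.6%). None of these motifs holds another, and a match is a description of the letters in these windows. Annotated starts can lie a few bases from the true first base, and no match says only that the letters are not there.

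No ribosomal protein message was called different between tumor and normal ureter. None of the 46 members passed the test (limma adjusted p between 0.0813 and 0.997), against 1.43% of all 13046 genes tested, and 1 member, Rps4l, had an unadjusted p under 0.05, against 21.5% of all genes. The median log2 difference between tumor and normal ureter was -0.10, with the middle of the members between -0.20 and 0.07, and 0.03 over all genes tested. No member differed by at least 1 log2 unit upwards (11.0% of all genes) and 1, Rps4l, by at least 1 downwards (10.9% of all genes). In 4 members both tumors lay above both normal ureters (29.4% of all genes), in 4 both lay below (27.7% of all genes), and in 38 the groups overlapped. The 95% interval of the difference lay between -1 and 1 for 23 members, against 26.0% of all genes, with standard errors of 0.20 to 0.45. Left with 1 tumor array, the fit called more genes of every kind: 17 members and 4298 of all genes passed without tumor 1, and 9 members and 5502 of all genes without tumor 2. An adjusted p above the threshold does not show that the other members were equal. In bulk RNA such as this, fewer cells of a type and less RNA per cell cannot be told apart.

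The sign of this small shift depended on how the arrays were scaled. With the deposited scaling 13 members were higher and 33 lower in tumors. With quantile normalization 32 were higher and 14 lower (median 0.08), and with each array centred on its median 34 were higher and 12 lower (median 0.10). Centring moved the median of all genes to 0.22, and relative to all genes the members' median was -0.12 with the deposited scaling, -0.12 with centring and 0.04 with quantile normalization. Differences below are on the deposited scaling. Of 38 named members, the sign changed in 14 with quantile normalization and in 13 with centring. Rps4l, Rplp0, Rpl14, Rpl37, Rpl7l1 and Rpl27a were among the members that kept it under both.

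**Figure D1:**
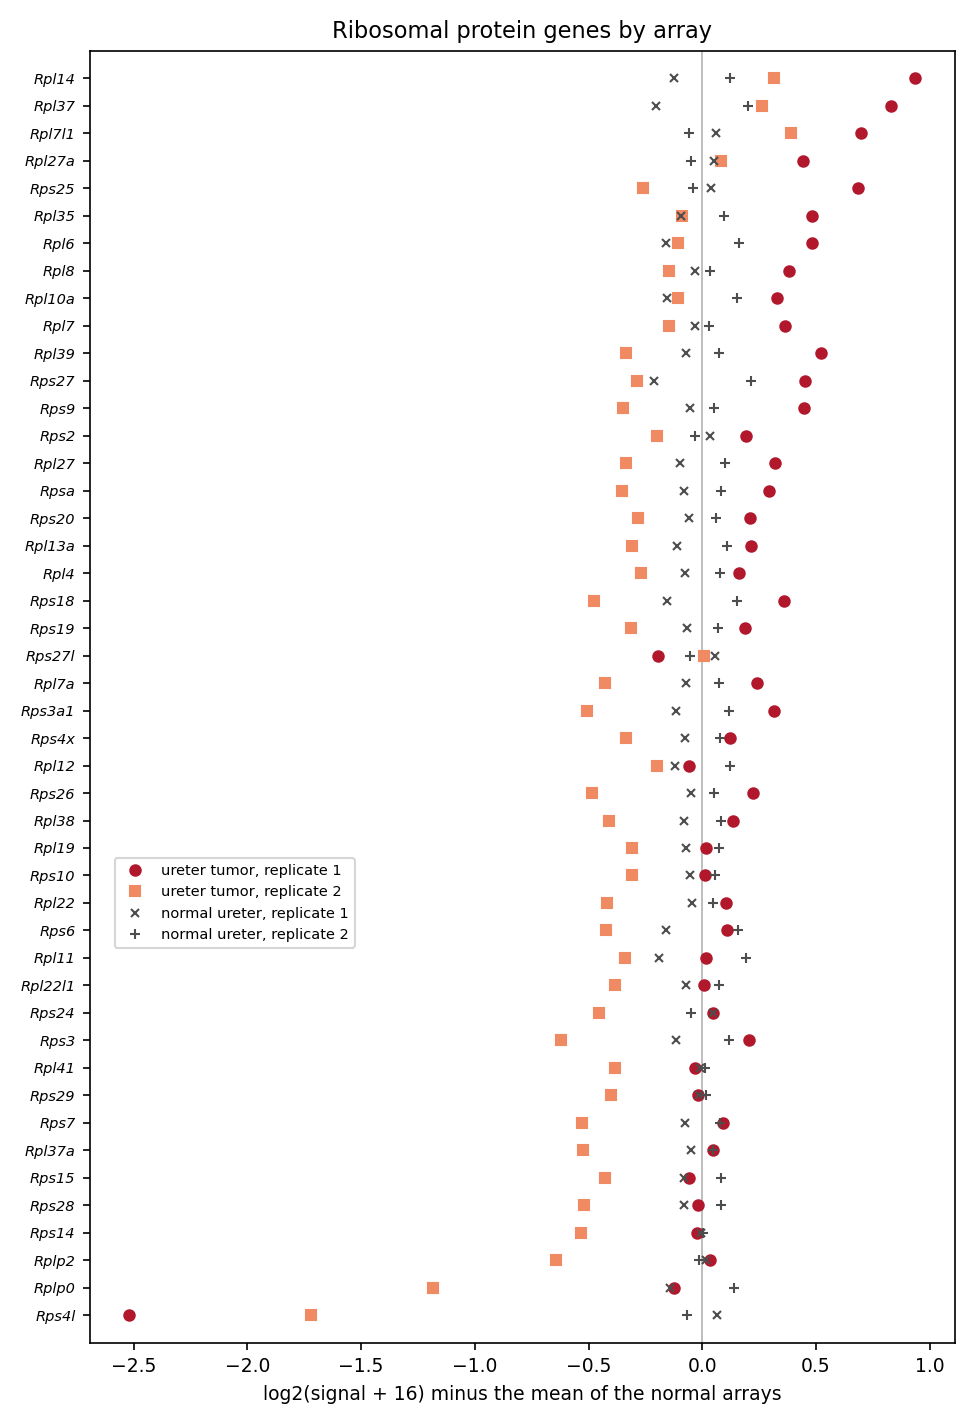
Each row is 1 tested ribosomal protein gene, ordered by its mean difference, and the horizontal axis is log2(signal + 16) on an array minus the mean of the normal arrays. Tumor replicate 1 (circles) lay right of tumor replicate 2 (squares) in 44 of 46 genes, and in 24 of them both normal arrays (crosses) lay between the tumors.

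Among the 22 tested small subunit genes the median log2 difference was -0.12, with 3 positive and 19 negative values. Rps14, a protein of the small subunit platform, had signals of 54004 and 37851 in tumors, against 54691 and 54967 in normal ureter. Only the second tumor was clearly low, and the difference was -0.28 (SE 0.31, limma adjusted p = 0.643). Rps28, which binds near the message exit, had 56901 and 40191 in tumors, against 54425 and 60972 in normal ureter (difference -0.27, adjusted p = 0.662). Rps15 had 29751 and 22993 in tumors, against 29274 and 32718 in normal ureter (difference -0.24). Rps7 had 43182 and 28102 in tumors, against 38414 and 42722 in normal ureter (difference -0.22). Tumor 1 stood within the normal arrays for Rps15 and just above them for Rps7, and tumor 2 below them in both.

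Rps29 had 75294 and 57747 in tumors, against 75503 and 77238 in normal ureter, and both tumors lay below both normals, tumor 1 only by a little (difference -0.21, adjusted p = 0.728). Rps3, which lines the entry site of the message and also takes part in DNA repair, had 31776 and 17892 in tumors, against 25411 and 29831 in normal ureter (difference -0.21, SE 0.37). The tumors lay on either side of the normal arrays. Rps6, the substrate of the S6 kinases, had 2357 and 1624 in tumors, against 1956 and 2440 in normal ureter (difference -0.16, SE 0.27). Rps19, mutated in Diamond-Blackfan anaemia, had 27457 and 19415 in tumors, against 22997 and 25293 in normal ureter (difference -0.06). Rpsa, also known as the laminin receptor precursor, had 39622 and 25304 in tumors, against 30524 and 34156 in normal ureter (difference -0.03). For Rps6 tumor 1 lay within the normal arrays, for Rps19 and Rpsa above them, and tumor 2 lay below them in each. Rps25, which is needed for some internal ribosome entry sites, was the highest of the small subunit at 0.21. Its probe set was of low signal, with 732 and 372 in tumors, against 463 and 437 in normal ureter. Rps2, Rps3a1, Rps9, Rps10, Rps18, Rps20, Rps24 and Rps26 lay between -0.20 and 0.05.

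The 22 large subunit genes and the 2 stalk genes together had a median difference of -0.05, with 10 positive and 14 negative values; whether they differ from the small subunit was not tested. The 4 members with both tumors above both normals were all of the large subunit. Each of them was read from a probe set with a mean signal under 10000. Among member probe sets above the filter, both tumors lay above both normals in 13 of 29 under that signal. The same held for 3 of 64 at or above it, against 27.3% of all probe sets. Rpl14 had 431 and 275 in tumors, against 198 and 239 in normal ureter, a mean of 353 ± 110 against 219 ± 28.4 (SD, n = 2 each). Its difference was 0.63 (SE 0.34, limma adjusted p = 0.367). Rpl37 had 3189 and 2145 in tumors, against 1551 and 2059 in normal ureter (0.55, SE 0.29, adjusted p = 0.363). Rpl27a, from a probe set of low signal, had 488 and 376 in tumors, against 368 and 343 in normal ureter (0.26, SE 0.26). Rpl7l1 is described with the paralogs. For Rpl37 and Rpl27a the lower tumor exceeded the higher normal array by a small margin.

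Rpl35, Rpl6, Rpl8, Rpl10a and Rpl7 followed with differences of 0.20, 0.19, 0.12, 0.11 and 0.11, and their groups overlapped. Rpl6 had 27354 and 18207 in tumors, against 17520 and 21928 in normal ureter, and Rpl8, near the peptidyl transferase centre, had 27146 and 18826 in tumors, against 20393 and 21322 in normal ureter. In both genes tumor 1 was the highest array. Rpl10a had 30202 and 22342 in tumors, against 21638 and 26775 in normal ureter, and Rpl7 had 32990 and 23216 in tumors, against 25129 and 26208 in normal ureter.

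On the other side, Rpl37a had 48965 and 32966 in tumors, against 45887 and 49094 in normal ureter (-0.24, adjusted p = 0.701). Rpl41, the smallest ribosomal protein, had 61605 and 48216 in tumors, against 62478 and 63547 in normal ureter (-0.21), so that both tumors lay below both normals and tumor 1 only by a little. Rpl11, which with Rpl5 can bind Mdm2 when free of the ribosome, had 23095 and 18004 in tumors, against 19971 and 26069 in normal ureter (-0.16, SE 0.27). Rpl13a, a common reference gene for expression assays, had 53548 and 37162 in tumors, against 42736 and 49754 in normal ureter (-0.05, SE 0.31). Rpl38, which in mouse is needed for the translation of a set of Hox messages, had 61504 and 42043 in tumors, against 52870 and 59215 in normal ureter (-0.14, SE 0.32). Rpl4, Rpl7a, Rpl12, Rpl19 and Rpl27 lay between -0.15 and -0.01. In Rpl11, Rpl13a and Rpl38 tumor 2 was the lowest array, and tumor 1 lay above both normals in Rpl13a and Rpl38 and between them in Rpl11.

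The stalk genes were the lowest of the members after Rps4l. Rplp0, the scaffold of the stalk, had 41426 and 19886 in tumors, against 41002 and 49845 in normal ureter. Tumor 1 lay within the normal arrays and tumor 2 at 1.18 log2 units below their mean. The difference was -0.66 (SE 0.45, limma adjusted p = 0.458). Rplp0 was also the 1 member whose tumors stood at least 1 log2 unit apart, against 23.2% of all genes tested. Rplp2, an acidic stalk protein, had 62410 and 39030 in tumors, against 61634 and 60421 in normal ureter (-0.31, SE 0.35, adjusted p = 0.654).

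Several ribosomal proteins have a paralog, a second gene for a similar protein, that can take its place or has a role of its own. Rps4l, a paralog of the X-linked Rps4x, had 258 and 461 in tumors, against 1626 and 1483 in normal ureter, a mean of 359 ± 144 against 1555 ± 101 (SD, n = 2 each). Both tumors lay far below both normal arrays. The difference was -2.12 (SE 0.34, 95% interval -3.05 to -1.18, unadjusted p = 0.00309, limma adjusted p = 0.0813), so it did not pass the test. It passed when tumor 1 or tumor 2 was left out (adjusted p = 5.71e-06 and 5.07e-08), and not when a normal array was (0.682 and 0.693). With 1 tumor array the spread comes from the normal arrays alone and the lone tumor is assumed to vary like them, and 4298 and 5502 of all genes passed in those fits. Rps4x had 43970 and 31987 in tumors, against 38278 and 42543 in normal ureter (-0.11, SE 0.29). The Rps4l value rests on 1 probe set, 1452730_at.

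Rpl7l1, a nucleolar paralog of Rpl7, had 1801 and 1451 in tumors, against 1153 and 1060 in normal ureter (0.54, SE 0.20, unadjusted p = 0.0548, limma adjusted p = 0.242). Its other probe sets read 750 and 606 in tumors, against 477 and 556 in normal ureter, and 557 and 304 in tumors, against 236 and 267 in normal ureter. In all 3 both tumors lay above both normal arrays, with differences of 0.38 to 0.68. Rps27l, a paralog of Rps27 that Trp53 can induce, had 11019 and 12704 in tumors, against 13127 and 12151 in normal ureter (-0.09, SE 0.20). At its other probe sets, 1423254_x_at and 1450925_a_at, both tumors lay below both normal arrays (differences -0.32 and -0.13). Rps27 itself, from a probe set of low signal, had 251 and 144 in tumors, against 152 and 211 in normal ureter (0.08, SE 0.41). A gene and its paralog are read from different probe sets, so their signal levels were not compared. Rpl22l1 had 13665 and 10396 in tumors, against 12929 and 14282 in normal ureter (-0.19), and Rpl22 had 35955 and 25025 in tumors, against 32357 and 34513 in normal ureter (-0.16). At the dimmer Rpl22 probe set 1448398_s_at both tumors lay below both normals (1573 and 1301, against 2157 and 2250, difference -0.62). At 1416603_at of Rpl22 the groups overlapped (-0.02). Rpl39, also from a probe set of low signal, had 343 and 183 in tumors, against 222 and 247 in normal ureter (0.09). Its paralog Rpl39l and the muscle paralog Rpl3l stayed below the filter, a signal of 54.6, with Rpl39l at 60.4 and 1.14 in tumors and 1.41 and 49.0 in normal ureter.

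**Figure D2:**
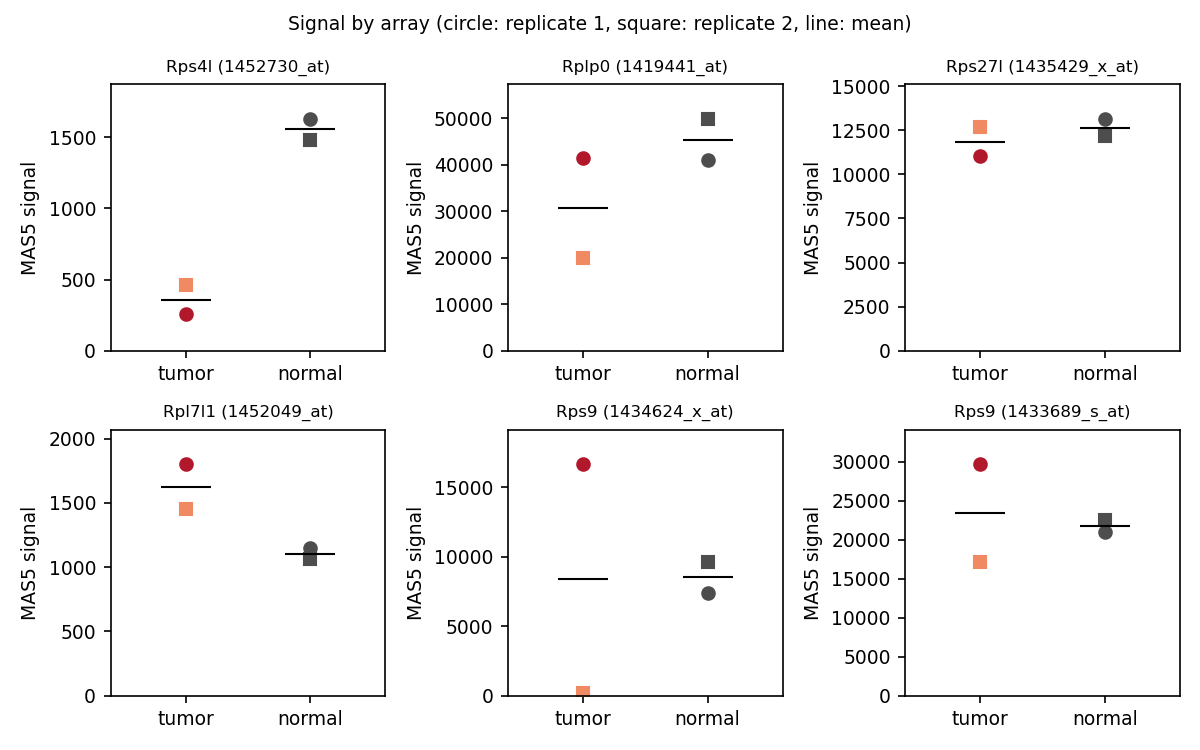
Each panel shows the signal of 1 probe set on the 4 arrays, with the tumors left of the normal ureters, circles for replicate 1, squares for replicate 2 and a line at the group mean, on an axis from 0 of its own. Rps4l was low in both tumors, Rplp0 in tumor 2, and the Rps9 probe sets parted on tumor 2, with 198 for 1434624_x_at and 17110 for 1433689_s_at.

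The members differed more between the tumors than between the groups. Tumor 1 exceeded tumor 2 in 44 of 46 members, and the exceptions were the paralogs Rps4l and Rps27l. The median difference to normal ureter was 0.19 in tumor 1 and -0.34 in tumor 2. The median gap between the tumors was 0.52 log2 units for the members and 0.02 for all genes tested. The normal arrays also differed, with replicate 2 above replicate 1 in 38 of 46 members and a median of -0.15 for replicate 1 minus replicate 2.

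Member probe sets took 6.34% and 4.66% of the summed signal on the tumor arrays, against 5.18% and 5.58% on the normal arrays. The 102 probe sets above the filter that name a ribosomal protein gene with other genes, which are not members, had median differences of 0.19 in tumor 1 and -0.28 in tumor 2. With quantile normalization the members' medians were 0.17 in tumor 1 and -0.05 in tumor 2, and tumor 1 was the higher in 39 of 46. The signal that 1% of probe sets exceeded was 14492 and 13231 on the tumor arrays, against 15396 and 15684 on the normal arrays, and the largest signal was 100977 and 69047, against 113446 and 124150. The ratio of the 3′ to the 5′ control probe set of Gapdh was 1.51 and 1.44 on the tumor arrays, against 0.92 and 0.92 on the normal arrays, and that of Actb ran the other way, with 2.47 and 2.63 on the tumor arrays, against 2.90 and 2.82 on the normal arrays. The kidney tubule, mast cell, T and NK cell and urothelial markers given above also parted the tumors. The part of these in the gap was not tested, and with 1 array each the tumors' gap has no replicate.

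Members with several probe sets gave a check within the same arrays. All 93 member probe sets above the filter were fitted among 22951 probe sets of that kind. None passed (1.56% of all such probe sets did), 9 had an unadjusted p under 0.05 (21.6% of all), and both tumors lay above both normals in 16 (27.3% of all) and below in 13 (29.3% of all). The 64 probe sets with a mean signal of at least 10000, from 36 genes, had a median difference of -0.09, and 1 of them differed by at least 1 log2 unit. The 29 dimmer ones, from 21 genes, had a median of 0.14, and 8 of them differed by at least 1.

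Of 20 genes with several probe sets above the filter, 10 had probe sets of opposite direction, Rps9, Rps10, Rpl35, Rpl13a, Rps24, Rps3, Rps20, Rpl27, Rpl41 and Rps7. In 7 genes the probe sets were at least 1 log2 unit apart. The widest gap, 2.23, was in Rps9, a small subunit protein. Its probe set 1434624_x_at had 16659 and 198 in tumors, against 7405 and 9652 in normal ureter, while 1433689_s_at had 29705 and 17110 in tumors, against 21001 and 22573 in normal ureter. Rps10 had 19197 and 7354 in tumors, against 2707 and 4959 in normal ureter, at 1439374_x_at (difference 1.69, SE 0.58), and 50609 and 40544, against 48362 and 52226, at its brightest probe set. On the first both tumors were higher, and on the second the groups overlapped.

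Rpl7 had 20069 and 16103 in tumors, against 5181 and 8351 in normal ureter, at 1426163_x_at (1.45, SE 0.32, limma adjusted p = 0.120), and the difference at its brightest probe set was 0.11. Rpl13a had 5078 and 3979 in tumors, against 1925 and 1782 in normal ureter, at 1433928_a_at (1.27, SE 0.21, adjusted p = 0.0807). Its probe set 1455001_x_at had 12491 and 7116 in tumors, against 3887 and 3481 in normal ureter (1.35, SE 0.33). Both of these lay higher in both tumors, and the brightest Rpl13a probe set differed by -0.05. Rps3 had 896 and 619 in tumors, against 283 and 383 in normal ureter, at 1455600_at (1.14, SE 0.31), and -0.21 at its brightest. Rps24, whose last exons are spliced in alternative ways, had 643 and 673 in tumors, against 1311 and 1535 in normal ureter, at 1455195_at (-1.09, SE 0.20, adjusted p = 0.0922), and its 4 other probe sets differed by -0.20 to 0.35. On the array, a name ending in _x_at or _s_at marks probes that may match several transcripts, and 15 of the 46 tested members were read from such a probe set. Which transcript each probe set measured was not tested.

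**Figure D3:**
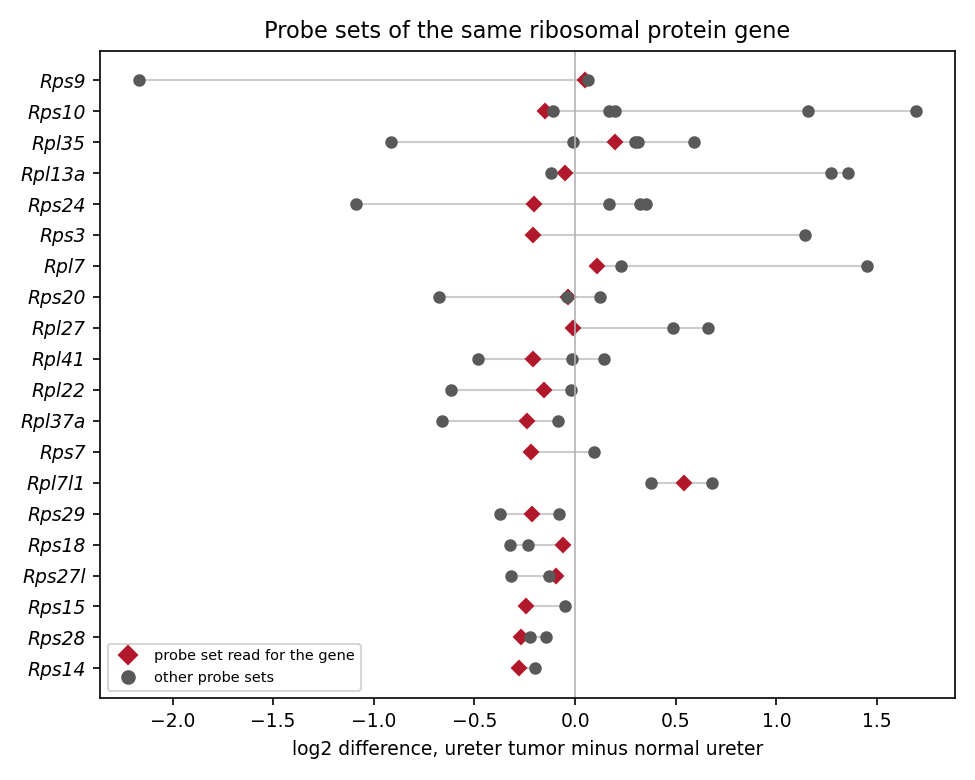
Each row is a ribosomal protein gene with several probe sets above the filter, ordered by the gap between them, and the horizontal axis is the log2 difference between ureter tumor and normal ureter. Diamonds mark the probe set read for the gene, which lay between -0.28 and 0.54, and circles the others, which reached -2.17 and 1.69.

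Genes that make and use ribosomes were read in the same fit, and none of the genes in the 7 lists passed the test (the counts at an unadjusted p under 0.05 follow). The list of translation elongation factors and other messages with a terminal oligopyrimidine tract had the pattern of the members, with medians of 0.18 in tumor 1 and -0.27 in tumor 2. Tumor 1 was higher in 16 of 17 genes, and 0 of 17 had an unadjusted p under 0.05, against 21.5% of all genes. Eef1a1, which delivers aminoacyl-tRNA, had 66624 and 55939 in tumors, against 78924 and 78510 in normal ureter (-0.37, limma adjusted p = 0.511). Eef2, the translocase, had 17311 and 14017 in tumors, against 12283 and 12464 in normal ureter (0.33, adjusted p = 0.437).

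Mitochondrial ribosomal proteins, encoded in the nucleus for the ribosome of the organelle, were lower in both tumors in 33 of 47 large and 23 of 29 small subunit genes, against 27.7% of all genes, with medians of -0.39 and -0.61. An unadjusted p under 0.05 was found in 11 of the 47, near the 21.5% of all genes, and in 14 of the 29. Both medians stayed negative with quantile normalization (-0.43 and -0.62) and with centring (-0.20 and -0.42). Mrpl9 had 1576 and 1542 in tumors, against 3200 and 3041 in normal ureter (-0.99, SE 0.16, limma adjusted p = 0.0831). Mrps31 had 482 and 576 in tumors, against 1206 and 1050 in normal ureter (-1.07, SE 0.22, limma adjusted p = 0.112). The medians of these lists were lower in tumor 1 (-0.51 and -0.71) than in tumor 2 (-0.32 and -0.49). Fat and smooth muscle markers were also lower in both tumors, as given above. The summed fat markers were lowest in tumor 2 and the summed smooth muscle markers in tumor 1. The part of these cell types in the lists was not tested.

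Ribosome biogenesis factors, which build ribosomes in the nucleolus, were higher in both tumors in 22 of 45 genes (29.4% of all genes) and lower in both in 5 (27.7% of all genes), with a median of 0.26. An unadjusted p under 0.05 was found in 5 of the 45, a smaller share than the 21.5% of all genes. The median was 0.23 with quantile normalization and 0.46 with centring. Eif6, which keeps the new large subunit from joining early, had 2609 and 2525 in tumors, against 1340 and 1453 in normal ureter (0.87, SE 0.17, limma adjusted p = 0.104). Polr1b, a subunit of RNA polymerase I, had 282 and 303 in tumors, against 122 and 99.4 in normal ureter (1.29, SE 0.29, adjusted p = 0.130). Nop10, a protein of the particles that modify ribosomal RNA, went the other way, with 7766 and 10304 in tumors, against 16380 and 15912 in normal ureter (-0.85, adjusted p = 0.164).

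Translation initiation factors had a median of -0.01 over 25 genes, with 3 at an unadjusted p under 0.05, a smaller share than the 21.5% of all genes. Eif4ebp1, a repressor of cap-dependent translation that mTOR inactivates, had 2673 and 1556 in tumors, against 8918 and 7394 in normal ureter (-1.98, SE 0.33, limma adjusted p = 0.0845). Eif4a2, a helicase paralog, had 13417 and 10066 in tumors, against 24887 and 24636 in normal ureter (-1.09, adjusted p = 0.126), and its paralog Eif4a1 had 11559 and 9875 in tumors, against 7293 and 7807 in normal ureter (0.50, adjusted p = 0.251). The S6 kinases and the mTOR pathway had a median of -0.0035 over 13 genes. An unadjusted p under 0.05 was found in 2 of the 13, in opposite directions, also a smaller share than the 21.5% of all genes. Ddit4, an inhibitor of mTOR complex activity, had 3981 and 3914 in tumors, against 2572 and 1954 in normal ureter (0.81, limma adjusted p = 0.155). Rps6ka5, a nuclear kinase of the wider S6 kinase family, had 248 and 223 in tumors, against 519 and 398 in normal ureter (-0.90, limma adjusted p = 0.182).

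Of the 9 measured regulators of ribosomal protein supply, 4 had an unadjusted p under 0.05, against 21.5% of all genes. Max had 747 and 293 in tumors, against 139 and 163 in normal ureter (1.54, SE 0.52, limma adjusted p = 0.211). Myc had 827 and 781 in tumors, against 324 and 268 in normal ureter (1.40, SE 0.23, limma adjusted p = 0.0843), and Mycn had 60.5 and 45.4 in tumors, against 148 and 187 in normal ureter (-1.42, SE 0.36). Mdm2, the ligase that free Rpl11 binds, had 803 and 701 in tumors, against 650 and 852 in normal ureter (0.01). Cdkn1a, a target of Trp53, had 1462 and 1193 in tumors, against 841 and 795 in normal ureter (0.68, SE 0.20, adjusted p = 0.181). Trp53 is not analysed here. Myc, Max and Cdkn1a lay higher in both tumors, Mycn lay lower in both, and Mdm2 overlapped.

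**Figure D4:**
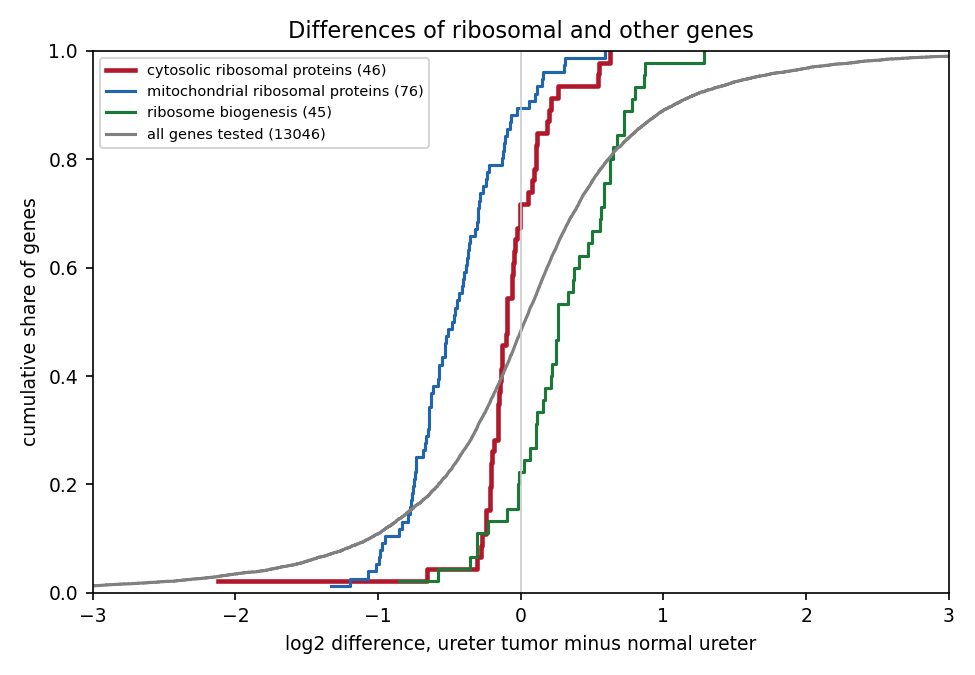
The horizontal axis is the log2 difference between ureter tumor and normal ureter and the vertical axis the cumulative share of genes at or below it, for cytosolic ribosomal proteins, mitochondrial ribosomal proteins, ribosome biogenesis factors and all genes tested; the axis ends at -3 and 3. The curve of the cytosolic ribosomal proteins is steeper than that of all genes and has its middle at -0.10, with the mitochondrial list to its left and the biogenesis list to its right.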

How the data were processed

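Total RNA of 2 ureter tumors and 2 normal ureters was measured on 1-colour arrays, and the labels state that biotinylated cRNA was made from 6 ug of RNA. The authors deposited a linear MAS5 signal intensity per probe set, per the submitters' processing notes, and the mean of each array after trimming 2% at each end was 500. Such scaling makes a signal relative to its array. Values were used as log2(signal + 16), which understates changes of dim genes. Of 45101 probe sets, 34945 named 1 gene, 932 several and 9160 none, and 64 were controls. For 34741 of those naming 1 gene, the gene was found in RefSeq and its RefSeq symbol was used. Each gene was read from its own probe set of highest mean, and genes under the 40th percentile of probe sets (54.6) were left out. The 13046 genes were tested with limma 3.58.1 in R 4.3.3 (intensity trend, 2 residual degrees of freedom), two-sided, with Benjamini-Hochberg adjustment over all of them at 0.05; 64 were higher and 123 lower in tumors, and 2802 had an unadjusted p under 0.05. An exact permutation test of 2 against 2 arrays cannot give less than 0.333, so none was run; 2 arrays a group limit the precision. Code was tested on simulated data. Members and gene lists were chosen with earlier results of these data known. Named genes were the 10 highest and 10 lowest members, the 5 smallest p in each direction, paralog pairs, stalk genes, Rpsa, Rps6, Rps3, Rps19, Rpl11, Rpl13a and Rpl38, members with probe sets of opposite direction, and up to 4 genes of each list by p with Myc, Mdm2 and Trp53. Alternatives were other pseudocounts (1 and 64), scalings, filters, probe set rules and variance models, a replicate block, and leaving out each array. Protein sequences of paralogs were not used here.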

Additional observations from a re-analysis of the deposited data

How the results depend on the processing

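The count of 0 ribosomal protein genes past the test held under every alternative that kept all 4 arrays and without either normal array; leaving out 1 array gave 0 to 17 (17 without tumor replicate 1, 9 without tumor replicate 2). The fit's prior degrees of freedom were 14.4 and 15.2 without a tumor array and 2.11 with all. Members at an unadjusted p under 0.05 numbered 1 to 24 when leaving out 1 array, 2 with centring (Rpl7l1 and Rps4l) and 2 without _x_at and _s_at probe sets (Rps24 and Rps4l). Members with every tumor array used above every normal array used numbered 15 with quantile normalization. They numbered 4 to 31 when leaving out 1 array (31 without tumor replicate 2, 7 without normal replicate 2). Members below numbered 1 with centring and 5 to 38 when leaving out 1 array (38 without tumor replicate 1, 14 without normal replicate 1). With 1 array left out, fewer arrays have to separate. No share of all genes is given for these settings, so whether these counts are specific to the members was not tested. Genes of the 7 lists past the test numbered 1 (Eif4ebp1) without _x_at and _s_at probe sets and 0 to 92 when leaving out 1 array (41 without tumor replicate 1, 92 without tumor replicate 2). These larger counts come with fewer samples in a group. With either tumor array left out, more of all genes also had an unadjusted p under 0.05 than with all 4 arrays. The members' median difference was -0.34 to 0.19 when leaving out 1 array. Of 38 named members, the sign changed in 14 with quantile normalization, 13 with centring, 5 with the mean of probe sets, 1 of 34 without _x_at and _s_at probe sets, and 10, 17, 3 and 7 without tumor replicates 1 and 2 and normal replicates 1 and 2; the cause was not tested. The deviations of same-numbered samples correlated at 0.04 over all genes and -0.41 over the members; with 2 numbers and no label on what they share, the samples were treated as unpaired, and whether they share an animal or day was not tested; with the replicate block 0 members and 0 of all genes passed, against 187 without it, and 2253 genes had an unadjusted p under 0.05. Among all genes, 2 passed without the intensity trend, 35 with centring and 104 with the mean of probe sets. The median over ribosomal protein probe sets naming several genes (-0.05) and the count of members higher in tumor 1 under the other alternatives (39 of 46 with quantile normalization, 36 of 41 without _x_at and _s_at probe sets, 42 of 46 with the mean of probe sets and 47 of 49 with no filter) were added after seeing the data.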
